A study of Mus musculus with 24 samples.

Results

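The genes described here are 9 markers of excitatory neurons of the cerebral cortex, read in RNA from mouse striatum: Slc17a7, Nptx1, Mef2c, Tbr1, Neurod2, Neurod6, Lamp5, Rorb and Fezf2. The rule lists them by name and uses no measured value, but the set was chosen with earlier results of these data known. All 9 were found among the 54532 genes of the read-count table. Each passed the filter on low counts that left 19667 genes for testing. The question put to them was how much cortical RNA the striatal samples carried and how far that amount varied among animals of the same genotype.

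The samples were striata of 24 C57BL/6 mice, with 6 animals (3 male, 3 female) in each of 4 genotypes. WT carried neither change. TyrobpKO lacked Tyrobp, which encodes an adaptor of microglial surface receptors. Q175 was heterozygous for the Q175 allele, in which Htt, the mouse Huntingtin gene, carries a lengthened CAG repeat as a model of Huntington's disease. Q175_TyrobpKO carried the heterozygous Q175 allele and the Tyrobp deletion together. The tissue came from a single hemisphere, was frozen, and was extracted with Trizol. Age, litter and the details of dissection are not given in the labels. In every genotype the males are numbered 1 to 3 and the females 4 to 6, and the numbers only name a library. Animal numbers in the labels carried a prefix that all TyrobpKO and Q175_TyrobpKO animals shared and no others had, so the prefix and the Tyrobp genotype cannot be told apart. All Q175 animals had another prefix, which among WT only replicate 3 had.

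Libraries held 25.5 to 34.6 M (megacounts) each. Levels are given as CPM, counts scaled to a common library total with TMM factors, and as RPKM, the same divided by the gene's length in kilobases, where genes are compared with each other. Tyrobp averaged 7.88 CPM in WT and 8.68 CPM in Q175, against 0.341 CPM in TyrobpKO and 0.260 CPM in Q175_TyrobpKO. Htt averaged 226 and 215 CPM in WT and TyrobpKO, and 164 and 170 CPM in Q175 and Q175_TyrobpKO. Among the 24 genes listed for striatal projection neurons, the summed level was 7421 to 19166 CPM per library, so genes of the labelled tissue were abundant in every library. Markers of choroid plexus, the secretory tissue of the ventricles, differed widely between samples. Their summed level was 40.2 to 77.4 CPM in WT, 26.7 to 134.9 CPM in TyrobpKO, 38.0 to 4227 CPM in Q175 and 43.6 to 610.9 CPM in Q175_TyrobpKO.

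Excitatory neurons of the cortex release glutamate, whereas the neurons resident in the striatum are almost all inhibitory. Cortical axons end in the striatum in great number, but the cell bodies that hold most of their RNA lie in the overlying cortex. The members fall into 3 kinds. Slc17a7 encodes the vesicular glutamate transporter that loads synaptic vesicles in cortical excitatory neurons, and Nptx1 encodes a secreted pentraxin of excitatory synapses. Tbr1, Neurod2, Neurod6 and Fezf2 encode transcription factors of the excitatory lineage: Tbr1 is a T-box factor of deep-layer neurons, Neurod2 and Neurod6 are basic helix-loop-helix factors, and Fezf2 is a zinc-finger factor of neurons that project below the cortex. Mef2c, Rorb and Lamp5 are less specific. Mef2c is a factor of many cortical neurons that also serves in interneurons and microglia, Rorb is a nuclear receptor of middle-layer neurons, and Lamp5 is a lysosome-associated membrane protein also used to mark a class of inhibitory cortical neurons.

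Of the 9 genes, 8 (all but Nptx1) were matched in the RefSeq promoter table on GRCm38.p6, with 12 windows in all. The 250 bases before the RefSeq start are shown for 4 members that rose and fell together across libraries. They are also shown for Lamp5, which did not follow those 4. RefSeq starts can differ from the gene coordinates given below. The Tbr1 window lies inside the gene as given there, and the Lamp5 window runs past the Lamp5 start. Capitals mark matches to CANNTG, the E-box that basic helix-loop-helix factors such as Neurod2 and Neurod6 bind, which reads the same on both strands. The windows are chr7:45163671-45163920 on the plus strand for Slc17a7, chr2:61804203-61804452 on the plus strand for Tbr1, chr11:98329646-98329895 on the minus strand for Neurod2, chr6:55681264-55681513 on the minus strand for Neurod6 and chr2:136052089-136052338 on the plus strand for Lamp5, each written 5′ to 3′ in the direction of the gene.

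Slc17a7: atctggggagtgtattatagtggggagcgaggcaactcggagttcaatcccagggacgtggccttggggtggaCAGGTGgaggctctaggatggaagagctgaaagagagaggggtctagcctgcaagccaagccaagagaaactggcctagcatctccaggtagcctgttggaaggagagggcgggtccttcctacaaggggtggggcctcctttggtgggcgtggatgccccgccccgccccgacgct

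Tbr1: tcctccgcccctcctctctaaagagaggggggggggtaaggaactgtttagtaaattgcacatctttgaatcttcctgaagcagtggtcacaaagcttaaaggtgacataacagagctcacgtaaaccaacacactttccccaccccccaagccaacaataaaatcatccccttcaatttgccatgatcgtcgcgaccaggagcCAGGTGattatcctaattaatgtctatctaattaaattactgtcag

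Neurod2: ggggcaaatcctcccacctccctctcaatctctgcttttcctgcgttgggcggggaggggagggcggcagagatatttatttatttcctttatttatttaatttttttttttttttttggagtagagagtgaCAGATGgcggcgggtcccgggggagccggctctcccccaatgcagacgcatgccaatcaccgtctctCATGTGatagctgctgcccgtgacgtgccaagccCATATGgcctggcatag

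Neurod6: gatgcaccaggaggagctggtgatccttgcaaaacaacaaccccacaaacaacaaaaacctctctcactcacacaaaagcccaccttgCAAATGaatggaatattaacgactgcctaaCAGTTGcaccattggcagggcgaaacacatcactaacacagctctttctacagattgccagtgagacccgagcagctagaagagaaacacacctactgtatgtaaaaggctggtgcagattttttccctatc

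Lamp5: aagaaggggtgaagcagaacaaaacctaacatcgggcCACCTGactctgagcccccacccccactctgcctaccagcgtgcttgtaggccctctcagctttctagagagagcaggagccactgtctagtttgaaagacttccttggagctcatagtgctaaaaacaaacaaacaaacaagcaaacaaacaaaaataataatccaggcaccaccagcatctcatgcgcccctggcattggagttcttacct

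CANNTG was found in 9 of the 12 member windows and in 66.2% of all 32851 promoter windows of this length. Slc17a7 held 1 match, Tbr1 held 1, Neurod2 held 3, Neurod6 held 2 and Lamp5 held 1 in the window shown. The narrower E-box CAGATG, which is one form of CANNTG, was found on either strand in 2 member windows (of Mef2c and Neurod2) and in 14.4% of all. The T-box motif GGTGTGA, on either strand, was in no member window and in 3.33% of all. The GC box GGGCGG was in 6 of the 12 member windows and in 32.7% of all, with 3 matches in that of Slc17a7.

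Slc17a7 (ENSMUSG00000070570, chromosome 7, 45163949 to 45176142 on GRCm38, plus strand) spanned 5.88 to 604.9 CPM over the 24 libraries, a 103-fold range. In WT its level was 25.7 CPM at the lowest, 296 CPM at the median and 430.3 CPM at the highest. In TyrobpKO the lowest, median and highest were 276, 431 and 604.9 CPM. In Q175 they were 8.49, 172.6 and 488 CPM, and in Q175_TyrobpKO 5.88, 335 and 575 CPM. TyrobpKO alone had no library below 276 CPM, and the groups overlapped in every pairing. Q175 replicates 2 and 3 (19.7 and 8.49 CPM), WT replicate 4 (25.7 CPM) and Q175_TyrobpKO replicate 6 (5.88 CPM) were the lowest 4 libraries, and the next, Q175 replicate 6, was at 81.8 CPM. The lowest still held 162 Slc17a7 reads, against 20664 in the library with the most, so counting error was small beside these differences. The only annotated gene that overlaps Slc17a7 is the microRNA gene Mir7055, which had 5 reads in all libraries together. Slc17a7 lies 14.7 Mb from Tyrobp on the same chromosome. In bulk RNA, fewer cells of a type and less RNA per cell cannot be told apart.

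As mean ± SD over 6 libraries, Slc17a7 averaged 257 ± 153 CPM in WT and 444 ± 141 CPM in TyrobpKO. With the Q175 allele it averaged 195 ± 191 CPM in Q175 and 313 ± 239.6 CPM in Q175_TyrobpKO. The coefficient of variation was thus 31.7% among TyrobpKO libraries, 59.7% among WT, 76.6% among Q175_TyrobpKO and 97.8% among Q175. Whether the spread itself differed between genotypes was not tested.

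Nptx1 (chromosome 11, 119538719 to 119547753) spanned 27.8 to 351 CPM, a 12.6-fold range. Its lowest, median and highest values were 46.6, 206 and 247 CPM in WT, 209, 278 and 351 CPM in TyrobpKO, 27.8, 123 and 272 CPM in Q175, and 35.9, 189 and 312 CPM in Q175_TyrobpKO. The same 4 libraries were the lowest as for Slc17a7, and TyrobpKO was again the group with no low library.

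Among the transcription factors, Tbr1 (chromosome 2, 61802930 to 61814114) had the widest range of the set, 0.799 to 110 CPM or 138-fold. Its lowest, median and highest values were 5.16, 48.6 and 84.0 CPM in WT, 55.2, 80.1 and 110 CPM in TyrobpKO, 1.23, 35.6 and 93.4 CPM in Q175, and 0.799, 57.0 and 106 CPM in Q175_TyrobpKO. In Q175_TyrobpKO replicate 6 only 22 Tbr1 reads were counted, against 3625 in TyrobpKO replicate 1. Deep-layer Tbr1 RNA was therefore close to absent in some striata and plentiful in others of the same genotype.

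Neurod6 (chromosome 6, 55677822 to 55681263) spanned 0.545 to 46.1 CPM, an 84.6-fold range, with 15 reads in its lowest library. Its lowest, median and highest values were 1.73, 18.8 and 29.1 CPM in WT, 18.6, 30.7 and 46.1 CPM in TyrobpKO, 0.699, 13.7 and 38.2 CPM in Q175, and 0.545, 20.6 and 37.4 CPM in Q175_TyrobpKO. Neurod2 (chromosome 11, 98325415 to 98329648) spanned 2.45 to 49.9 CPM, a 20.4-fold range, and was lowest in WT replicate 4 rather than in Q175_TyrobpKO replicate 6 (3.596 CPM). Fezf2 (chromosome 14, 12342094 to 12348189) spanned 2.33 to 17.6 CPM, a 7.57-fold range. For these 3 factors, as for Tbr1, Slc17a7 and Nptx1, the 4 lowest libraries were the same 4.

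The less specific members varied less. Mef2c (chromosome 13, 83504034 to 83667080) spanned 166 to 425 CPM, a 2.56-fold range, and its 4 lowest libraries were again those 4. Its medians were 223, 299, 230 and 264 CPM in WT, TyrobpKO, Q175 and Q175_TyrobpKO. Rorb (chromosome 19, 18930605 to 19111196) spanned 18.3 to 51.3 CPM, a 2.80-fold range, and stood highest in TyrobpKO replicate 2 and WT replicate 5. Lamp5 (chromosome 2, 136052239 to 136069917) spanned 67.7 to 104 CPM, only a 1.54-fold range, and lay at 81.1 CPM in Q175_TyrobpKO replicate 6, the library with the least Slc17a7. The other 3 of those libraries held 73.4, 85.5 and 92.99 CPM. Lamp5 thus kept its level in the samples where Tbr1, Neurod6 and Slc17a7 were nearly absent.

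**Figure D1:**
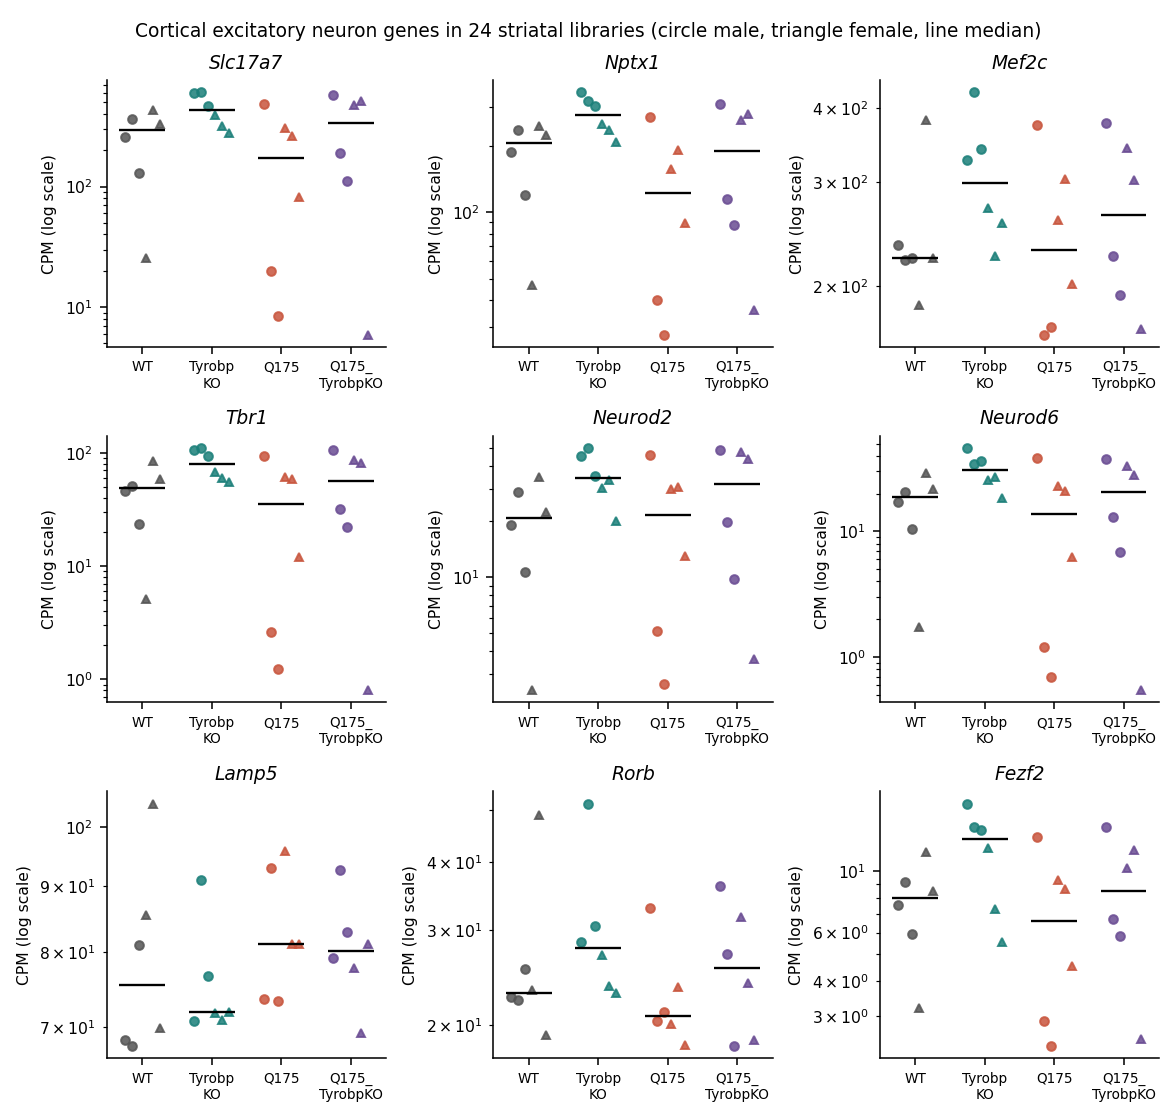
Each panel plots the level of 1 gene in CPM on a log axis for the 24 libraries by genotype (WT, TyrobpKO, Q175, Q175_TyrobpKO), with circles for males, triangles for females and a line at each median. The axis range differs between panels: Slc17a7, Tbr1 and Neurod6 span 103-fold, 138-fold and 84.6-fold, and Lamp5 spans 1.54-fold.

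Per gene length, Slc17a7 was the most abundant member at 56.0 ± 36.4 RPKM (mean ± SD, n = 24), followed by Nptx1 (36.8 ± 19.1 RPKM), Lamp5 (27.1 ± 3.37 RPKM) and Mef2c (17.0 ± 4.87 RPKM). Tbr1 (10.02 ± 6.53 RPKM), Neurod6 (9.66 ± 6.24 RPKM) and Neurod2 (8.39 ± 5.01 RPKM) came next, and Fezf2 (2.87 ± 1.42 RPKM) and Rorb (2.40 ± 0.783 RPKM) were lowest. Neighbours in this order differed by less than the larger of their SDs, except Lamp5 from Mef2c, Mef2c from Tbr1, and Neurod2 from Fezf2.

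The spread within genotypes was set beside that of all genes tested. The SD of log2 CPM within a genotype was 1.93 for Tbr1, 1.89 for Slc17a7, 1.71 for Neurod6, 1.30 for Neurod2, 1.02 for Nptx1 and 0.79 for Fezf2. It was 0.41 for Mef2c, 0.40 for Rorb and 0.18 for Lamp5, where the median over the 19667 genes tested was 0.21. The share of tested genes with a smaller spread than Slc17a7 was 99.96%, and it was 42.6% for Lamp5. Genotype accounted for 17.5% of the variance of log2 CPM of Slc17a7 across the 24 libraries, against a median of 18.7% over all genes tested. In the edgeR fit the biological coefficient of variation was 97.1% for Slc17a7, 100.5% for Tbr1, 95.3% for Neurod6 and 12.1% for Lamp5, with a median of 14.7%. Slc17a7 and Tbr1 thus stood among the most variable genes of the table within genotypes, while Lamp5 varied less than the typical gene.

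Whether the members varied together was examined on deviations of log2(CPM + 0.25) from the mean of the same genotype and sex, with 100000 permutations of libraries within genotype and sex and Benjamini-Hochberg adjustment over the 36 pairs. In 25 of the 36 pairs the correlation passed an adjusted p of 0.05, and all 25 were positive. How many pairs of all genes tested would pass the same test was not examined. The median r with Slc17a7 was 0.97 over the other 8 members and -0.02 over all genes tested. Slc17a7 and Tbr1 were the closest pair, with Pearson's r of 0.996 and Spearman's rho of 0.997 (permutation p 1e-05 for both, the smallest that these permutations can give; adjusted p 4.5e-05 for r). Without the 2 libraries farthest from the median of the members' mean deviation, Q175_TyrobpKO replicate 6 and Q175 replicate 1, their r was 0.993. A glutamate transporter gene and a deep-layer transcription factor gene therefore rose and fell in close step from animal to animal.

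The 15 pairs among Slc17a7, Nptx1, Tbr1, Neurod2, Neurod6 and Fezf2, a grouping made after the values were seen, had r of 0.956 to 0.996 and rho of 0.938 to 0.997. Within single genotypes their r was 0.833 to 0.999 over 6 libraries each, and without the 4 libraries of lowest Slc17a7 it was 0.926 to 0.993. Mef2c correlated with those 6 genes at r of 0.863 to 0.887 (rho 0.811 to 0.865; adjusted permutation p at most 0.0017), and at 0.8004 to 0.827 without the 2 farthest libraries. Rorb reached r of 0.567 to 0.857 with Mef2c and those 6, and 4 of its 7 pairs passed. Its highest was with Mef2c (0.857), the only 1 of the 4 that still passed without the 2 farthest libraries (adjusted permutation p 0.0043). Those with Tbr1, Neurod2 and Fezf2 then had r of 0.502, 0.554 and 0.526 (adjusted permutation p 0.132, 0.116 and 0.116). Lamp5 passed in 0 of 8 pairs, with r between -0.255 and 0.421 and raw permutation p of 0.215 to 0.924, none under 0.05. By this measure all members but Rorb and Lamp5 moved together, with r of at least 0.863 in each of their pairs.

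**Figure D2:**
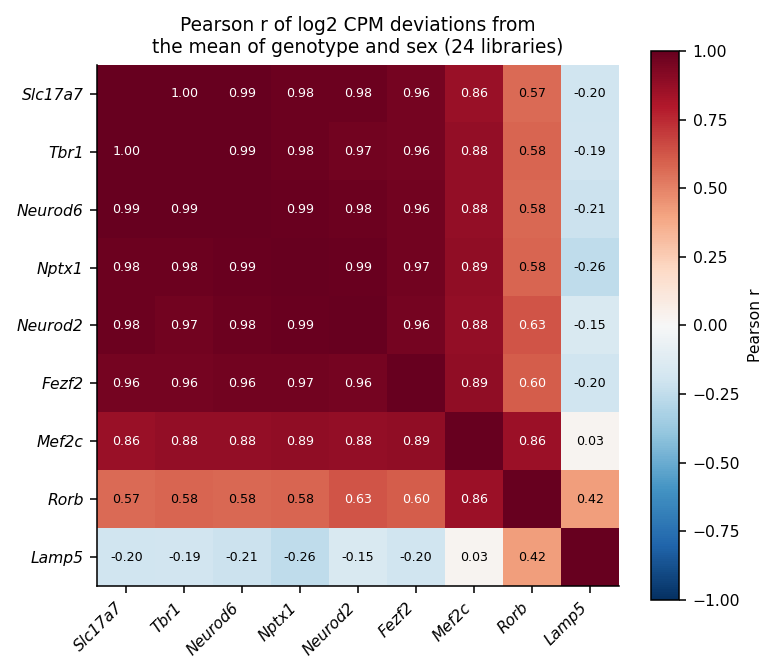
The grid gives Pearson's r for each pair of the 9 genes over 24 libraries, from deviations of log2 CPM from the mean of genotype and sex, on a colour scale from -1 to 1. The 6 genes in the upper left have r of 0.956 to 0.996 with each other, and the Lamp5 row lies between -0.255 and 0.421.

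On the linear scale, each member's CPM was fitted by least squares against the Slc17a7 CPM of the same library (24 libraries, a description with no test). The line's value at no Slc17a7 was 0.99% of the mean level for Tbr1, 3.54% for Neurod6, 10.9% for Neurod2, 21.6% for Nptx1 and 27.4% for Fezf2. It was 60.7% for Mef2c, 67.1% for Rorb and 103.5% for Lamp5. The line accounted for 97.5% of the variance of Tbr1, 96.1% of Nptx1, 94.3% of Neurod6, 94.0% of Neurod2, 91.9% of Fezf2, 79.4% of Mef2c, 42.9% of Rorb and 3.38% of Lamp5. Tbr1 and Neurod6 therefore ran to near 0 where Slc17a7 did. Most of the Mef2c and Rorb reads, and all of the Lamp5 level, remained at the line's value for a sample with no Slc17a7.

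**Figure D3:**
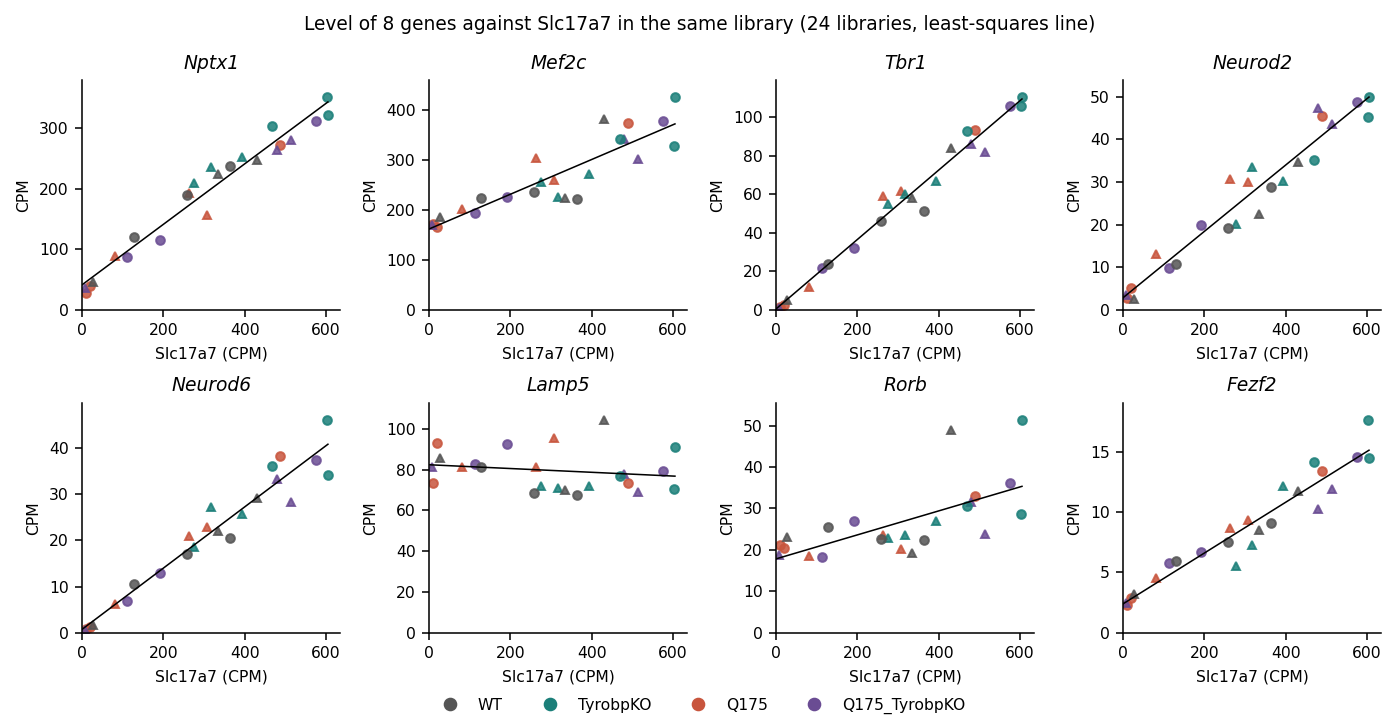
Each panel plots the CPM of 1 gene (vertical axis, from 0) against the Slc17a7 CPM of the same library (horizontal axis), with colours for genotype, circles for males, triangles for females and the least-squares line over the 24 libraries. The lines for Tbr1 and Neurod6 meet the vertical axis at 0.99% and 3.54% of the gene's mean, those for Mef2c, Rorb and Lamp5 at 60.7%, 67.1% and 103.5%.

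The genotypes were compared with edgeR's quasi-likelihood test, in 1 fit over all 24 libraries with a term for sex and with Benjamini-Hochberg adjustment over the 19667 genes tested. Q175 against WT and Q175_TyrobpKO against TyrobpKO ask what the Q175 allele changes with and without Tyrobp. TyrobpKO against WT and Q175_TyrobpKO against Q175 ask what the deletion changes. Contrasts that share a group share its libraries, so their values are given side by side only.

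No member was called in Q175 against WT, where 9.63% of all genes were, and none had an unadjusted p under 0.05. Slc17a7 differed by -0.40 ± 0.87 (log2 fold change ± SE; 95% interval -2.21 to 1.41; edgeR adjusted p 0.846), Tbr1 by -0.23 ± 0.85 (interval -2.003 to 1.55) and Nptx1 by -0.45 ± 0.55 (interval -1.60 to 0.69). For Slc17a7 the interval takes in a large fall as well as a large rise. For Lamp5 the difference was 0.06 ± 0.10 with an interval of -0.14 to 0.27, the narrowest of the set. Without WT replicate 5, the WT library of highest Slc17a7, the differences of Tbr1 (0.084), Neurod6 (0.093), Fezf2 (0.047) and Rorb (0.038) turned positive, none called, and those of the first 3 also did so without Q175 replicate 2 or 3. With a term for the animal-number prefix the difference of Slc17a7 was 0.66, not called, but WT is then represented by replicate 3 alone (128.7 CPM), the WT animal that shares the prefix of Q175. The median over the 9 members was -0.17, with 3 positive, beside a median of 0.01 over all genes tested. Over single libraries left out that median ran from -0.47 (without Q175 replicate 1) to 0.084 (without WT replicate 5).

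In Q175_TyrobpKO against TyrobpKO, 5.86% of all genes were called and no member was. Slc17a7 differed by -0.50 ± 0.87 (interval -2.32 to 1.32; edgeR adjusted p 0.828), Tbr1 by -0.58 ± 0.84 and Neurod6 by -0.65 ± 0.78. Only Lamp5 was positive (0.09 ± 0.10), and the median was -0.44, beside -0.0019 over all genes tested. Without Q175_TyrobpKO replicate 6 the median was -0.26. It was -0.77 in males alone and 0.014 in females alone, where 5 members were positive.

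In TyrobpKO against WT, 0.117% of all genes were called and no member was. Slc17a7 differed by 0.78 ± 0.87 on the log2 scale (interval -1.04 to 2.61; edgeR adjusted p 0.859), Neurod6 by 0.89 ± 0.79, Tbr1 by 0.87 ± 0.85 and Neurod2 by 0.86 ± 0.66, and none was called. All members but Lamp5 were positive, with a median of 0.65, beside 9e-04 over all genes tested. That median was 1.03 in males alone and 0.31 in females alone, where 6 members were positive. In Q175_TyrobpKO against Q175, where 0.158% of all genes were called, no member was called and Slc17a7 differed by 0.68 ± 0.87 (interval -1.13 to 2.50; edgeR adjusted p 0.913). There too all but Lamp5 were positive, with a median of 0.41, beside -0.0013. That median rested on single libraries: it was 0.13 without Q175_TyrobpKO replicate 1, 0.16 without Q175 replicate 2 and also without replicate 3, 0.25 without Q175 replicate 6, 0.24 and 0.26 without Q175_TyrobpKO replicates 4 and 5, 0.67 without Q175_TyrobpKO replicate 6 and 0.93 without Q175 replicate 1. Since 7 of the members vary together, these are not 9 separate observations.

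Q175_TyrobpKO against WT (9.44% of all genes called) gave no member either, and Slc17a7 differed by 0.29 ± 0.86. The interaction of the Q175 allele and the Tyrobp genotype called 0% of all genes and no member (DESeq2 called 3 genes, no member; 707 genes had an unadjusted edgeR p under 0.05), with Slc17a7 at -0.10 ± 1.22. Females against males called 0.0814% of genes and no member (Slc17a7 -0.04 ± 0.62). The Q175 effect in females minus that in males called 0% of genes and no member by edgeR or DESeq2 (Slc17a7 0.27 ± 1.86; 747 genes at an unadjusted edgeR p under 0.05). No member had an unadjusted p under 0.05 in any of these contrasts in the fit of all libraries. In none of the 5 genotype contrasts were the 2 groups' libraries separate for any member. The share of all tested genes with separate groups was 4.08% in Q175 against WT, 0.356% in TyrobpKO against WT, 0.463% in Q175_TyrobpKO against Q175, 4.49% in Q175_TyrobpKO against TyrobpKO and 4.91% in Q175_TyrobpKO against WT, so among 9 genes a count of 0 does not set the members apart. Leaving out any single library, other size factors and DESeq2 called 0 of the 9 members in each of these contrasts, as did fitting either sex alone in the 5 genotype contrasts.

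**Figure D4:**
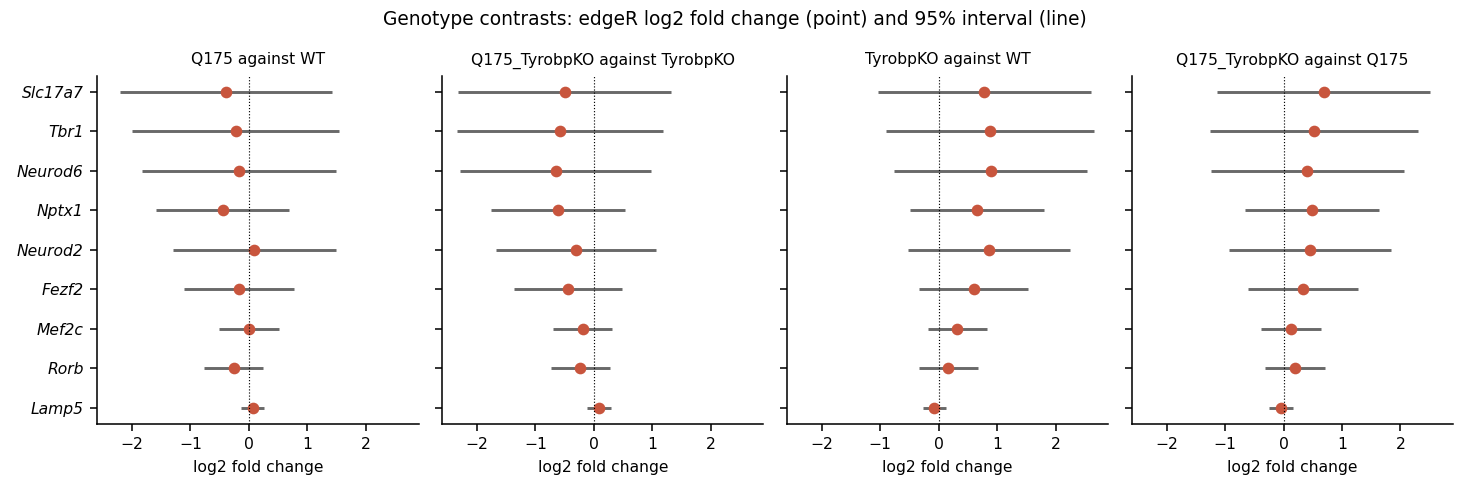
Points are edgeR log2 fold changes and lines their 95% intervals for the 9 genes (rows) in 4 genotype contrasts (panels), from 1 fit over 24 libraries. Every interval crosses 0; that of Slc17a7 in Q175 against WT runs from -2.21 to 1.41 and that of Lamp5 from -0.14 to 0.27.

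The level of Slc17a7 was next set beside other genes of the cortex and of neighbouring tissue, in deviations from the mean of genotype and sex, with permutation p-values adjusted over the 109 genes listed. Of 22 further cortical genes, 16 correlated positively with Slc17a7 at an adjusted p under 0.05, 1 negatively, and the median r was 0.88, beside -0.02 over all genes tested. Cck, which encodes the neuropeptide cholecystokinin, ran from 5.62 to 126 CPM (r 0.974, rho 0.977; 0.972 without the 2 farthest libraries). Vsnl1, a neuronal calcium sensor, ran from 90.6 to 410 CPM (r 0.903, rho 0.968; 0.890 without them), and Sv2b, a synaptic vesicle protein, from 171 to 380 CPM (r 0.929, rho 0.952; 0.912 without them). Ctgf, a growth factor gene of the deepest cortical layer, ran from 1.80 to 55.1 CPM (r 0.948), and Nrn1, which encodes neuritin, from 1.66 to 41.2 CPM (r 0.780, rho 0.922). Syt6, a synaptotagmin gene, fell as Slc17a7 rose (116 to 217 CPM, r -0.686, rho -0.746; adjusted permutation p 0.0074). The other 5 did not pass, and are named after their values were seen, except Rspo1 and Tshz2: Rasgrf2 (r 0.266), Scnn1a (r 0.208), Rspo1 (r 0.276), Tshz2 (r -0.299) and Otof (r -0.462; rho -0.577, with an adjusted permutation p of 0.028 for rho alone).

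Of the same 22 genes, 1 was called in Q175 against WT. Rspo1, which encodes a secreted enhancer of Wnt signalling, fell from a mean of 7.81 CPM in WT to 2.87 CPM in Q175 (log2 fold change -1.44 ± 0.14, edgeR adjusted p 7.72e-08). It also fell from 6.81 CPM in TyrobpKO to 3.71 CPM in Q175_TyrobpKO (-0.88 ± 0.14, edgeR adjusted p 1.74e-04). Its correlation with Slc17a7 across libraries was 0.276 (rho 0.324; adjusted permutation p 0.19). The other 3 of smallest p were not called: Nxph4, a neurexophilin gene, differed by 0.53 ± 0.23 (edgeR adjusted p 0.162), Tshz2, a zinc-finger factor gene, by -0.40 ± 0.23 (edgeR adjusted p 0.317) and Syt6 by -0.20 ± 0.12 (edgeR adjusted p 0.347).

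Genes of the striatum's own projection neurons moved the opposite way. All 24 had a negative r with Slc17a7, 17 passed, none passed as positive, and the median was -0.71 (-0.74 when libraries were scaled by total count alone). Penk, the enkephalin precursor gene of striatopallidal neurons, ran from 326 to 1263 CPM with r of -0.771 (rho -0.801; -0.706 without the 2 farthest libraries; adjusted permutation p 0.0078). Ppp1r1b, which encodes a phosphatase inhibitor of dopamine signalling, had r of -0.575 (rho -0.594; adjusted permutation p 0.066) and did not pass. CPM are relative levels, scaled here with TMM factors. Whether a larger share for cortical genes lowered that of these genes was not tested. The drop was modest beside the members' range: each doubling of Slc17a7 went with a median of -0.07 on the log2 scale over these 24 genes.

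The 4 genes of septum and pallidum, regions next to the striatum, also ran opposite to Slc17a7 and all passed, among them Zic1 (r -0.598, rho -0.640; -0.443 without the 2 farthest libraries) and Lhx8 (r -0.786, rho -0.794; -0.660 without them). Interneuron genes split. The neuropeptide genes Sst (114 to 180 CPM, r 0.614, rho 0.590) and Npy (17.4 to 32.5 CPM, r 0.755, rho 0.767) rose with Slc17a7. Vip, named after its values were seen, rose with it from 0.508 to 10.2 CPM (r 0.925). The cholinergic genes Chat (r -0.786) and Slc5a7 (r -0.853), named likewise, fell. The remaining 2 of the 7 interneuron genes did not pass, Pvalb (r 0.049) and Lhx6 (r -0.354), also named after their values were seen. The 3 peptide genes thus followed the members, both cholinergic genes ran against them, and these 2 markers of other interneurons did neither by this test.

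The thalamic list had 1 positive (Slc17a6, the other main vesicular glutamate transporter gene) and 1 negative gene (Synpo2, r -0.582) of 7. Prkcd, its most abundant member per length, had r of -0.468 and did not pass. The hippocampal list had 1 positive (Lct, at no more than 0.792 CPM) and 1 negative (Dsp) of 7, and Prox1 (r -0.442) and Fibcd1 (r -0.440) did not pass. Of the 10 choroid plexus genes all were negative and 1 passed, Clic6 (r -0.673), while Ttr, the transthyretin gene, had r of -0.387 and did not. Of 5 microglial genes P2ry12 alone passed (r -0.468, adjusted permutation p 0.048; r -0.295 without the 4 libraries of lowest Slc17a7). Cx3cr1, named after its values were seen, had the r farthest from 0 (-0.525, adjusted permutation p 0.060; 0.017 for rho), with C1qa at -0.406 and Csf1r at -0.454. None passed among 5 astrocyte genes (Aldoc r -0.086, Slc1a3 r -0.307), 5 oligodendrocyte genes (Mbp r 0.181) or 5 endothelial genes (Cldn5 r 0.003, Ly6c1 r -0.114).

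**Figure D5:**
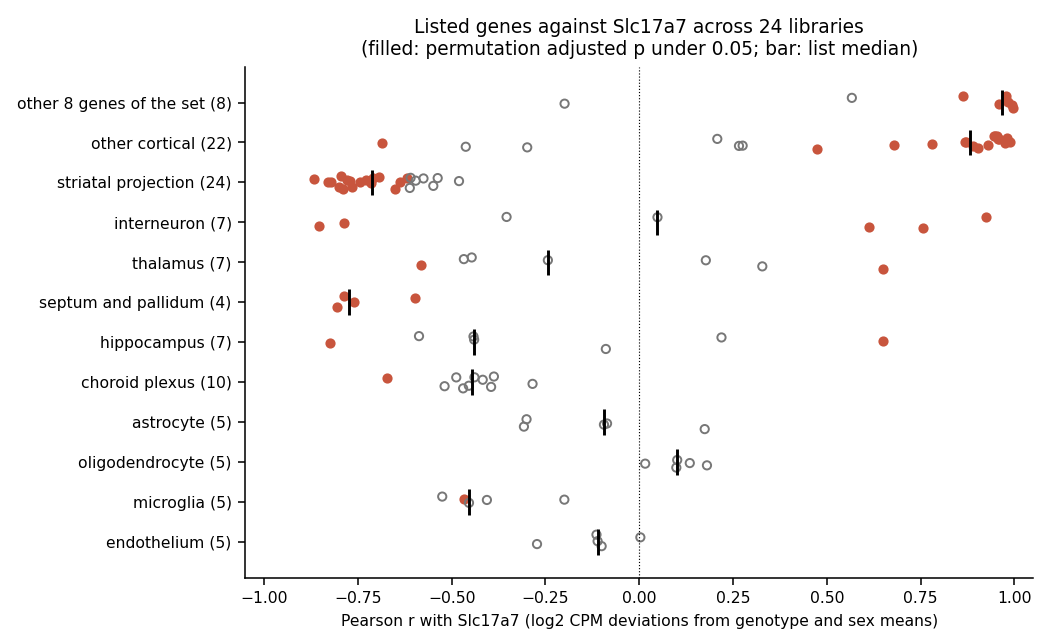
Each point is 1 gene's Pearson r with Slc17a7 over 24 libraries, from deviations of log2 CPM from the mean of genotype and sex, in rows by gene list (number of genes in parentheses). Filled points passed an adjusted permutation p of 0.05 and the bar is the list's median, which is 0.88 for further cortical genes and -0.71 for striatal projection genes.

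A fit over all genes with the log2 level of Slc17a7 as a further term, chosen after the data were seen, called a slope on Slc17a7 in 12.5% of the 19667 genes tested, with 1584 (8.05%) rising and 878 (4.46%) falling with it. Among the further cortical genes 14 of 22 rose and 1 fell, and among the striatal projection genes 11 of 24 fell. All 4 septal and pallidal genes fell, 3 interneuron genes rose and 2 fell, 4 of 10 choroid plexus genes fell, and no astrocyte, oligodendrocyte, microglial, endothelial or thalamic gene was called. These counts use the same libraries as the correlations and are not independent of them.

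The genes most like the members were ranked by Pearson r with the members' mean standardised deviation over the 24 libraries, among 15481 genes of at least 1 CPM on average (a description with no test). The 10 nearest included Brsk2, Cadps2, Kcnt2, Trhde, Tshz3, Mical2, Hs3st2 and Satb1, with r of 0.979 to 0.971, and the gene ranked next had 0.970. In all, 323 genes had r over 0.9. Cadps2, which encodes a protein of dense-core vesicle release, ran from 8.74 to 108.5 CPM, a 12.4-fold range, whereas the kinase gene Brsk2 ran only from 119 to 181.5 CPM, a 1.53-fold range. Likeness in this measure was therefore shared by genes of wide and of narrow range. With Spearman's rho in place of r, 3 of the 10 stayed among the nearest 10, and with scaling by total counts 8 did.

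The first principal component of the 1000 most variable genes held 34.7% of their variance, and its absolute correlation with Slc17a7 was 0.959 (rho 0.933; permutation p 1e-05 for both, the smallest possible; adjusted p 3e-05; 0.947 without the 2 farthest libraries). Since 6 of the members are among those 1000 genes, the component is not independent of them. The next components held 15.5% and 13.6% and had absolute r of 0.108 and 0.022. Their absolute rho was 0.302 and 0.012, and without the 2 farthest libraries their absolute r was 0.380 and 0.105.

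Further fits gave the main contrasts with this variation taken into account or removed, both chosen after the data were seen. In Q175 against WT, 18 of the 24 striatal projection genes were called lower, as were 5.47% of all genes. With Slc17a7 as a term this was 22 (6.93% of all genes), and without the 4 libraries of lowest Slc17a7 it was 12 (3.73%). The median log2 fold change of the 24 genes was -0.63, -0.69 and -0.64. In Q175_TyrobpKO against TyrobpKO, 8 were called lower (3.08% of all genes), then 13 (3.97%) and 5 (2.89%), with medians of -0.38, -0.49 and -0.43. Over all genes, Q175 against WT called 1893, then 2436 with Slc17a7 as a term, of which 1815 were among the 1893. Without the 4 libraries it called 1300, of which 1071 were. TyrobpKO against WT called 23, 22 and 22 genes, and Q175_TyrobpKO against Q175 called 31, 35 and 21. In Q175 against WT, Q175_TyrobpKO against TyrobpKO and TyrobpKO against WT the median of the striatal genes was negative in each fit. In Q175_TyrobpKO against Q175 it was -0.045, then 0.008 with Slc17a7 as a term and -0.048 without the 4 libraries. The fit without the 4 libraries also has fewer samples, so its lower counts cannot be told apart from that loss. Of the 10 choroid plexus genes, 2 were called in Q175 against WT, both higher (Ttr and Aqp1, the latter named after its values were seen), where 9.63% of all genes were called. The median difference of the 10 was 3.05 on the log2 scale, and their summed level had a median of 104 CPM in Q175 within a range of 38.0 to 4227 CPM, so the groups overlapped. Their part in the counts of striatal genes was not tested.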

How the data were processed

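Read counts per gene were measured in 24 striatal libraries, 6 per genotype. The authors deposited raw counts, whole numbers per gene that were not normalized. Per the submitters' processing notes, STAR, featureCounts and DESeq2 were named, with no version or role, and the build named was GRCh38. The table nevertheless holds mouse genes: 54409 of its 54532 identifiers were found in GENCODE M21 (GRCm38). Of those 54409, 53499 (98.3%) had the same coordinates. Strand use in counting is not given in the sources used here. Nothing in the labels gives litters, so p-values measure the spread between these animals.

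Counts were fitted with edgeR 4.0.16 (R 4.3.3; TMM, filterByExpr on genotype, quasi-likelihood, robust) with genotype means plus sex, after the script was tested on simulated data. Calls are edgeR p-values under 0.05 once adjusted by Benjamini-Hochberg across the tested genes. SE is the log2 fold change divided by the root of F. Correlations used log2(CPM + 0.25). The mean chi-square per gene of the 60 pairs of libraries of 1 genotype was 6.89 to 42.6, so no 2 libraries agreed within sampling noise. Alternatives were DESeq2 1.42.0, its size factors, no filter, no sex term, either sex alone, only the libraries compared, a term for the animal-number prefix, and each library left out. Named genes were the members, the 6 most abundant further cortical genes per length and the 4 of smallest p in Q175 against WT, the 2 most abundant of each other list, the 10 genes most like the members, Tyrobp and Htt; not all of these are reported here. The members and gene lists were chosen with earlier results of these data known.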

Additional observations from a re-analysis of the deposited data

Results flagged for a closer look

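Within a genotype, the highest or lowest of the 6 libraries was checked for each member by Dixon's ratio of its gap to the group's whole range, against its 95% critical value. Of 36 such groups 5 passed it, and chance flags about 1 in 20 groups. All 5 were high values of the less specific members, where Slc17a7, Tbr1, Neurod2, Neurod6, Nptx1 and Fezf2 gave none. Mef2c was at 382 CPM in WT replicate 5 (ratio 0.750). Rorb was at 48.9 CPM in the same library (ratio 0.789), at 51.3 CPM in TyrobpKO replicate 2 (ratio 0.733) and at 32.9 CPM in Q175 replicate 1 (ratio 0.646). Lamp5 was at 91.0 CPM in TyrobpKO replicate 2 (ratio 0.706). These libraries also held the highest Slc17a7 of their genotypes, at 430.3, 604.9 and 488 CPM.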

How the results depend on the processing

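No paired analysis was possible because the labels give each animal its own number and the replicate numbers used here follow accession order. No member was called in any of the contrasts under any alternative run; the smallest edgeR adjusted p in Q175 against WT was 0.274, without WT replicate 5. Signs of the small differences did change. In Q175 against WT a term for the animal-number prefix, which leaves WT replicate 3 alone to stand for WT, turned Slc17a7 to 0.66, Nptx1 to 0.13, Tbr1 to 0.72, Neurod6 to 0.56 and Fezf2 to 0.33, and leaving out the 4 libraries of lowest Slc17a7 turned Tbr1 to 0.10, Neurod6 to 0.16 and Fezf2 to 0.11. Males alone gave Neurod2 -0.16 and Rorb 0.079, females alone Mef2c -0.046 and Lamp5 -0.0046, and no filter gave Mef2c -0.0054. With each library left out in turn the difference was -0.16 to 0.20 for Mef2c, -0.40 to 0.36 for Neurod2, -0.37 to 0.038 for Rorb, -0.89 to 0.084 for Tbr1, -0.84 to 0.093 for Neurod6 and -0.47 to 0.047 for Fezf2. In TyrobpKO against WT males alone gave Lamp5 0.13 and females alone Mef2c -0.076 and Rorb -0.31, with -0.14 to 0.014 for Lamp5 and -0.026 to 0.45 for Rorb over single libraries left out. In Q175_TyrobpKO against Q175 Lamp5 was 0.087 in males alone and -0.092 to 0.0007 over single libraries left out, and Mef2c was -0.0016 without the 4 libraries. In Q175_TyrobpKO against TyrobpKO females alone gave Slc17a7 0.017, Mef2c 0.11, Neurod2 0.17 and Rorb 0.014, and the striatal projection genes called were 8, 13 with Slc17a7 as a term and 5 without the 4 libraries. The median over the members, in males and in females alone, was -0.29 and -0.070 in Q175 against WT, 1.03 and 0.31 in TyrobpKO against WT, and -0.77 and 0.014 in Q175_TyrobpKO against TyrobpKO. Of the 10 genes most like the members, 3 remained with Spearman's rho. The cause of these changes was not tested. The number of all genes called in Q175 against WT was 1893, with 187 in females alone, 293 with the prefix term and 759 in males alone. In Q175_TyrobpKO against TyrobpKO it was 1153, with 104 in males alone and 290 in females alone. In TyrobpKO against WT it was 8 in females alone, 65 in males alone and 23 in all. In Q175_TyrobpKO against Q175 it was 11 in males and 11 in females alone and 52 by DESeq2, against 31. The lowest count of a member in a library was 15 reads (Neurod6).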
